A study of Mus musculus with 6 samples.

Results

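The genes described here encode the main phase II conjugating enzymes of the mouse jejunum, that is the UDP-glucuronosyltransferases (UGT), the cytosolic sulfotransferases (SULT) and the glutathione S-transferases (GST) together with their membrane-bound relatives (MGST). Members were taken by symbol (names starting with Ugt1 to Ugt3, Sult1 to Sult6, Gst followed by a class letter and a number, or Mgst). On the array, 52 of the 22180 genes that had a transcript cluster (the set of probes summarised for a transcript) carrying only their own symbol met the rule, with 10 UGT, 21 SULT and 21 GST or MGST genes. A further 9 clusters carried several symbols that included a family member, such as those shared by the UGT1A isoforms, and were measured but not assigned to a gene.

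Phase II enzymes attach a polar group to drugs, dietary chemicals, bile acids and steroids so that the product can be pumped out of the cell. UGT enzymes sit in the endoplasmic reticulum and transfer glucuronic acid from UDP-glucuronate, SULT enzymes transfer sulfate from the activated donor PAPS in the cytosol, and GST enzymes couple reactive electrophiles to glutathione. The absorptive cells of the small intestine are a major site of all of these reactions, and hepatocyte nuclear factor 4 alpha (HNF4A), a nuclear receptor of liver and gut epithelium, is a known regulator of many conjugation genes in liver.

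Total RNA was profiled from whole jejunum of 3 mice with HNF4A deleted in intestinal epithelial cells (the mutants, labelled hnf4alpha mutant) and of 3 control mice, 1 array per mouse. All were adult mice kept on a diet rich in fat (HFD) over 12 weeks under pathogen-free housing and injected with ketamine and xylazine before death, so no group on a normal diet was compared. The deletion was driven by a Cre transgene under the Villin promoter, which acts in the epithelium only, whereas the RNA came from the whole wall with its muscle, immune and stromal cells. The mutants carried Hnf4a loxP/loxP alleles with this transgene, whereas for the controls the sources used here gave no alleles. The study centred on male mice and used females for weight gain too, without stating the sex or litter of each mouse on the arrays.

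Levels are log2 signals after robust multi-array averaging (RMA), and a difference of 1 is a 2-fold change. Array medians lay between 5.53 and 5.58, and the correlation across clusters, which are not independent, was 0.981 to 0.988 for arrays of one group and 0.977 to 0.986 for arrays of different groups. All 19 measured enterocyte markers were above the background level, and their mean per array spanned 12.17 to 12.27 in mutants and 12.17 to 12.29 in controls. Hnf4a itself was at 9.49, 9.25 and 9.11 in the mutants, against 10.74, 10.60 and 10.57 in the controls, a difference of -1.35 (SE 0.13). Its limma adjusted p was 0.111 over all clusters and 0.00743 over the clusters with 1 symbol, and the groups did not overlap. Its paralog Hnf4g averaged 12.17 ± 0.11 in mutants and 12.13 ± 0.11 in controls (SD, n = 3 each). By quantitative PCR and immunolabelling, the paper detected neither Hnf4a transcripts nor HNF4A protein in mutant jejunum on this diet, whereas the array still gave a signal. The source of that signal was not tested. From bulk array RNA alone, its possible sources, among them residual signal from undeleted epithelium and signal from other cells, cannot be told apart. The same holds for fewer cells of a type and less RNA per cell.

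The first question was which conjugating enzymes the jejunum expressed. A level of 5.43, the upper 95% point of 1105 olfactory receptor genes in the controls, served as background. In both groups 29 of the 52 members had a mean above it (55.8%, beside 60.4% of all genes), 2 (Ugt2b36 and Sult4a1) did in 1 group, and 21 in neither. By family, 20 of 21 GST and MGST genes were above background, against 4 of 10 UGT genes and 5 of 21 SULT genes. Among genes with a cluster of their own, the expressed UGT genes were Ugt2a3, Ugt2b5, Ugt2b34 and Ugt2b35. The expressed SULT genes were Sult1a1, Sult1b1, Sult1d1, Sult2b1 and Sult6b2. The 2 shared clusters of UGT1A isoforms, not counted here, were also above background, with means of 8.54 and 6.64 in mutants and 8.76 and 6.57 in controls. Gstt4 was the single GST below background. The Sult2a genes, which encode hydroxysteroid and bile acid sulfotransferases of mouse liver, were all below it in both groups, as were Sult1e1, which encodes the estrogen sulfotransferase, and the 2 measured Ugt3a genes.

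**Figure D1:**
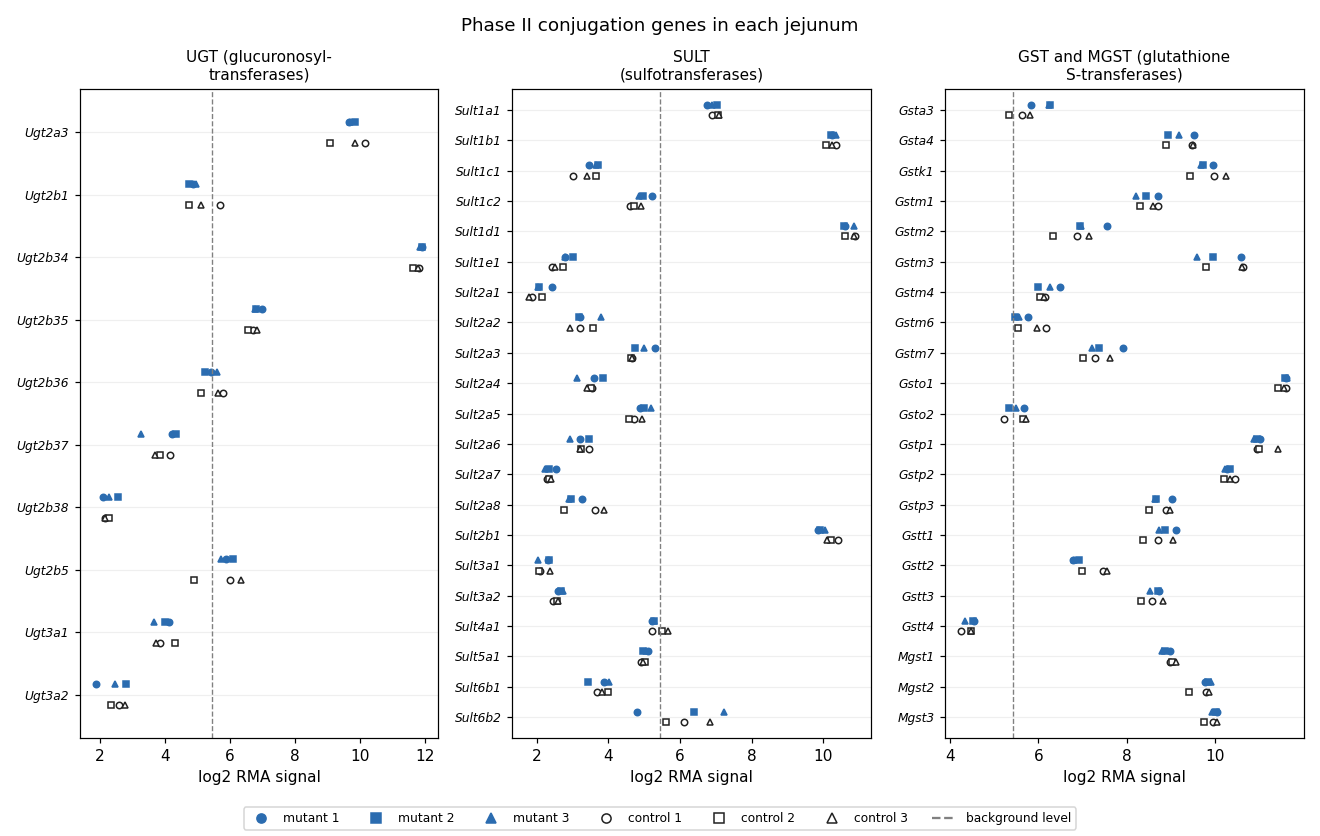
Log2 RMA signal of each of the 52 members (rows) in each mouse, mutants as filled blue symbols above and controls as open black symbols below, with the background level of 5.43 as a dashed line. Most GST and MGST genes lie right of the line and most SULT genes left of it, and the blue and black symbols are fully apart for 7 members.

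The second question was whether these genes differed between mutants and controls. No member was called at a limma adjusted p under 0.10, either over all 41345 clusters or over the 23521 clusters with 1 symbol. In the fit over all clusters 5 (0.0121%, all lower in mutants) were called, and in that over clusters with 1 symbol 111 (0.472%, of which 0.208% higher and 0.264% lower of all tested). At an unadjusted p under 0.05, 3 members were higher in mutants (Gsta3, Sult1e1 and Sult2a3) and 2 were lower (Gstt2 and Sult2b1), where 3.66% of all genes were higher and 2.87% lower (6.53% in all). The 3 mutant values all lay above the 3 control values for 4 members (Ugt2b34, Sult1e1, Sult2a3 and Gsta3) and all below them for 3 (Sult2b1, Gstt2 and Mgst1). Over all genes the groups were apart in this way for 7.5% higher and 6.82% lower in mutants (14.3% in all), so 7 of 52 members is close to the share among genes at large. With 3 arrays against 3, an exact two-sided permutation test of 1 gene cannot give a p below 0.1.

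The median difference over the members was 0.04, with 29 above 0 and 23 below, beside 0.01 over all genes. By family it was 0.05 for UGT (6 above 0, 4 below), 0.03 for SULT (13 above, 8 below) and -0.02 for GST and MGST (10 above, 11 below). Among members above background the medians were 0.14 for UGT (4 of 4 above 0), -0.10 for SULT (4 of 5 below 0) and -0.03 for GST and MGST (9 above, 11 below). The precision of these arrays limits what a missed call means: the 95% limma interval of the difference lay within a 2-fold change for 49 of 52 members, and within a 1.5-fold change for 29. The intervals that reached beyond 2-fold were those of Sult6b2 (-1.51 to 1.42), Gstm3 (-1.06 to 0.45) and Sult2a8 (-1.05 to 0.28). The members were also more variable between mice of a group than genes at large, with a median residual SD of 0.205 against 0.138, and 39 of 52 exceeded the gene median.

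**Figure D2:**
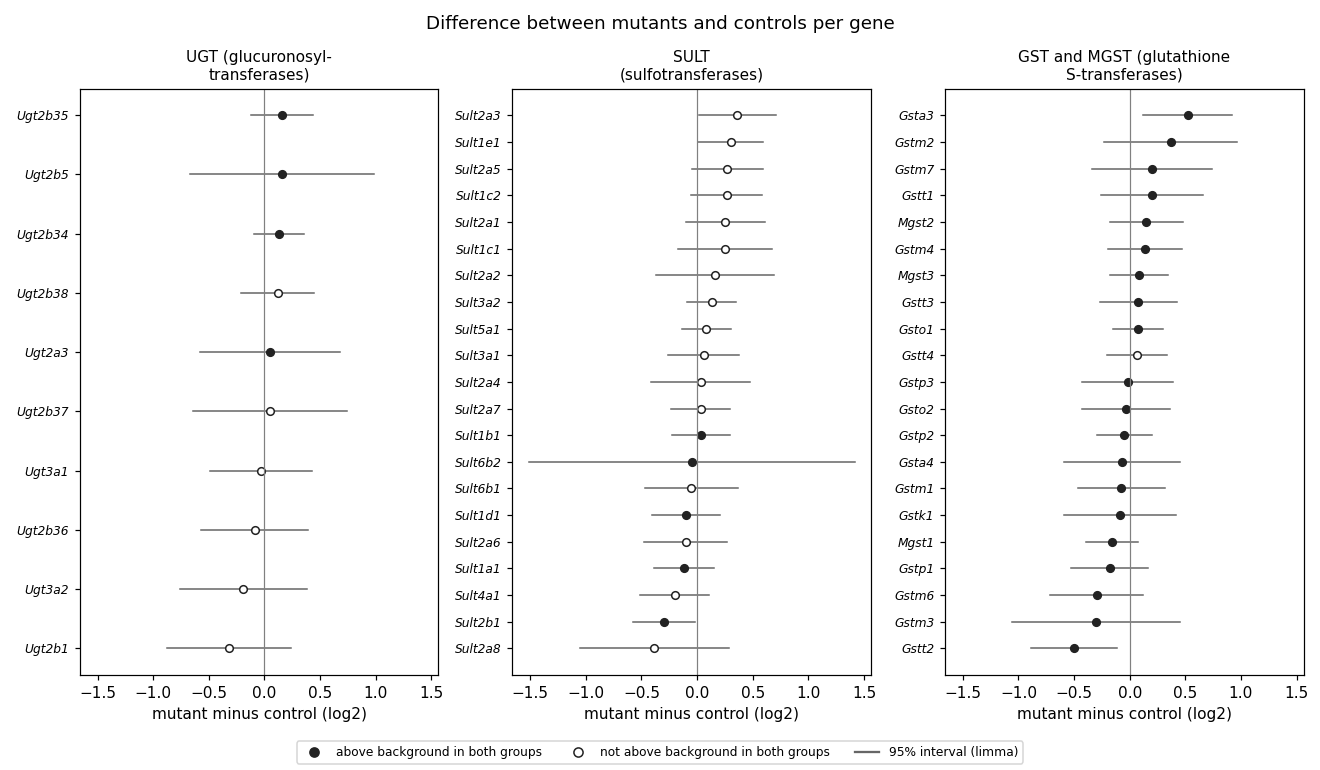
Mutant minus control difference (log2) of each member with its 95% limma interval, sorted within each family, with filled points for members above background in both groups and open points for the rest. The widest interval is that of Sult6b2, and the differences of Gsta3 (0.52) and Gstt2 (-0.50) sit at opposite ends of the GST panel.

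Among the UGT genes, Ugt2b34 encodes a UGT2B enzyme of the kind that glucuronidates steroids and xenobiotics. It was at 11.88, 11.89 and 11.83 in the mutants, against 11.80, 11.62 and 11.78 in the controls. Each mutant was thus above each control, but by a difference of 0.13 (SE 0.10, 95% interval -0.10 to 0.36, limma adjusted p 0.828). Ugt2b35 was at 6.98, 6.80 and 6.76 in the mutants and 6.71, 6.55 and 6.83 in the controls, overlapping. Ugt2a3, whose human counterpart glucuronidates bile acids, was at 9.65, 9.84 and 9.68 in mutants against 10.13, 9.05 and 9.84 in controls. Ugt2b5 stood at 5.86, 6.08 and 5.73 in mutants against 5.98, 4.89 and 6.32 in controls. In both genes control 2 was the lowest of the 6 arrays and another control the highest, so the controls spanned the mutants on both sides and the differences were 0.05 and 0.15. The UGT1A isoforms, which handle bilirubin and many phenols, were seen only through shared clusters. One of these was at 8.48, 8.67 and 8.49 in mutants and 8.65, 8.62 and 9.001 in controls, a difference of -0.21 (SE 0.13), and the other at 6.72, 6.64 and 6.55 in mutants against 6.71, 6.51 and 6.50 in controls. Ugt2b1, which in rodents is best known from liver, was at 4.86, 4.74 and 4.97 in mutants and 5.69, 4.74 and 5.10 in controls, under background throughout in the mutants.

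The SULT gene with the smallest p among those above background was Sult2b1, which encodes a sulfotransferase for cholesterol and other 3-hydroxysteroids. It lies on chromosome 7 (chr7:45729981-45759672, GRCm38) and was at 9.85, 9.91 and 10.05 in the mutants, against 10.40, 10.20 and 10.10 in the controls. All mutants were below all controls, with mutant 3 and control 3 only slightly apart, and the difference was -0.30 (SE 0.12, a 1.23-fold lower signal, limma adjusted p 0.676 over all clusters and 0.470 over those with 1 symbol). The stretch from 200 to 101 bases before a RefSeq start of the gene is shown because it holds the HNF4 core CAAAGT. The core is in capitals, read on the strand of the gene (chr7:45759713-45759812, minus strand). This start lies inside the gene coordinates given above, and the window of another Sult2b1 start also held the core.
Sult2b1: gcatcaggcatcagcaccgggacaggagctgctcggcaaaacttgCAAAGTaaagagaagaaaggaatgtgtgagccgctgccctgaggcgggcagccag
The match is a description of the letters and not a binding site.

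The other SULT genes of the gut epithelium differed less. Sult1b1, which encodes a sulfotransferase of thyroid hormones and phenols, was at 10.23, 10.20 and 10.34 in mutants and 10.36, 10.07 and 10.25 in controls. Sult1d1, a catecholamine sulfotransferase gene of the mouse, was at 10.60, 10.56 and 10.85 in mutants against 10.87, 10.59 and 10.84 in controls. The phenol sulfotransferase gene Sult1a1 was at 6.76, 7.03 and 6.90 in mutants against 6.89, 7.06 and 7.09 in controls. These 3 overlapped between groups, with differences of 0.03, -0.10 and -0.12. Sult6b2 varied most of all members, at 4.79, 6.39 and 7.22 in mutants and 6.10, 5.60 and 6.84 in controls, a spread far wider than its difference of -0.05 (SE 0.62). Below background, Sult2a3 stood at 5.29, 4.75 and 4.99 in mutants against 4.65, 4.64 and 4.66 in controls (0.36, SE 0.15), and Sult1e1 at 2.79, 3.02 and 2.80 in mutants against 2.44, 2.75 and 2.51 in controls (0.30, SE 0.12). Both sets of values were apart between groups, but at levels where the array does not show that the gene is expressed. Sult2a8 was also below background, at 3.27, 2.96 and 2.90 in mutants and 3.62, 2.78 and 3.88 in controls.

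Of the GST genes, Gsta3 had the smallest p of all 52 members. It encodes an alpha class enzyme that in mice detoxifies the activated form of aflatoxin, and lies on chromosome 1 (chr1:21240565-21265575). It was at 5.84, 6.26 and 6.23 in the mutants and 5.63, 5.34 and 5.80 in the controls. Mutant 1 and control 3 almost met, and the difference of 0.52 (SE 0.17, a 1.44-fold higher signal) had a limma adjusted p of 0.618 over all clusters and 0.327 over those with 1 symbol. Its signal was close to background, with control 2 under it. The same 200 to 101 bases before a RefSeq start, again inside the gene coordinates given, are shown because they hold 2 of the searched motifs in capitals. The first is ATTAAC, the reverse complement of the HNF1 motif GTTAAT. The second is a match to the antioxidant response element TGACNNNGC (chr1:21240385-21240484, plus strand).
Gsta3: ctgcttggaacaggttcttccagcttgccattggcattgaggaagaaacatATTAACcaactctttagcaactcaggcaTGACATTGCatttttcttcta
Gsta4, the alpha class enzyme of lipid peroxidation products, was at 9.53, 8.94 and 9.17 in mutants against 9.47, 8.87 and 9.50 in controls, overlapping (difference -0.07). Gsta1 and Gsta2 were measured only through 3 clusters that carried both symbols, and these overlapped between groups, one of them being at 10.93, 10.58 and 10.58 in mutants against 11.02, 10.31 and 10.99 in controls.

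Gstt2 encodes a theta class enzyme and lies in a cluster of theta genes on chromosome 10 (chr10:75831842-75837419). It was at 6.78, 6.92 and 6.80 in the mutants, against 7.47, 6.99 and 7.55 in the controls. The mutants were tightly grouped and control 2 sat just above them, so the difference of -0.50 (SE 0.16, a 1.42-fold lower signal, limma adjusted p 0.619 and 0.328) rested on controls 1 and 3. Without control 2 the difference was -0.67 and Gstt2 was called over the clusters with 1 symbol (limma adjusted p 0.0713). No other fit that left out 1 array called it over these clusters. Over all clusters none of those fits called it (lowest limma adjusted p 0.288). Its neighbours gave overlapping values. Gstt1 was at 9.11, 8.85 and 8.73 in mutants against 8.70, 8.36 and 9.04 in controls, and Gstt3 at 8.72, 8.70 and 8.53 in mutants against 8.58, 8.32 and 8.83 in controls.

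Mgst1, a membrane-bound transferase and glutathione peroxidase of the endoplasmic reticulum and mitochondria, was at 8.98, 8.87 and 8.79 in mutants and 8.98, 9.01 and 9.10 in controls. Mutant 1 and control 1 were nearly equal, and the difference was -0.16 (SE 0.10, limma adjusted p 0.804). In the mu class, on chromosome 3, Gstm2 was at 7.55, 6.94 and 6.96 in mutants against 6.88, 6.33 and 7.14 in controls (0.37, SE 0.25), and Gstm3 was at 10.59, 9.96 and 9.57 in mutants against 10.62, 9.80 and 10.61 in controls (-0.30, SE 0.32). Gstm6 was at 5.75, 5.48 and 5.55 in mutants against 6.16, 5.54 and 5.97 in controls. In each of these the groups overlapped, and mutant 1 was the highest mutant and control 2 the lowest control. Gsto1, an omega class enzyme that reduces dehydroascorbate, was at 11.59, 11.57 and 11.63 in mutants against 11.60, 11.42 and 11.55 in controls. Gstp1, the pi class enzyme, was at 11.02, 10.93 and 10.87 in mutants against 10.95, 11.00 and 11.42 in controls, where control 3 stood apart. The cluster annotated to Gstp2 was at 10.27, 10.33 and 10.23 in mutants against 10.44, 10.19 and 10.34 in controls. Its identity is uncertain, since RefSeq places Gstp2 on chromosome 19 whereas all 20 neighbouring clusters in identifier order belong to genes of chromosome 1.

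A shared array pattern ran through the families. Control 2 gave the lowest of the 6 values for 17 of the 29 members above background (58.6%), against 17.4% of the 13388 genes above background. It was lowest in 4 of 4 UGT and 12 of 20 GST and MGST genes, but in 1 of 5 SULT genes. Relative to the control mean, the median UGT deviation was 0.14, 0.16 and 0.04 in the mutants and 0.16, -0.38 and 0.15 in the controls. For GST and MGST it was 0.14, -0.10 and -0.09 in the mutants and 0.08, -0.26 and 0.21 in the controls. In both families each mutant median was above that of control 2. Without control 2, the UGT median above background was -0.09 (2 above 0, 2 below), that of SULT -0.19 (5 of 5 below 0) and that of GST and MGST -0.08, with -0.01 over all genes above background. The groups were then apart for 17 of 52 members (32.7%, 6 higher and 11 lower in mutants), beside 26.4% of all genes (3203 higher and 2654 lower of 22180). Controls 1 and 3 also had the highest mean of 28 hepatocyte markers, at 5.18, 4.98 and 4.86 in mutants against 6.25, 5.55 and 6.36 in controls. Each mutant mean of these markers was also below that of control 2. Of the markers 27 had a difference below 0, 8 of them called over the clusters with 1 symbol, and 18 were above background in controls. The groups were apart with mutants lower for 21 of the 28, beside 6.82% of all genes. Control 2 had the highest mean of 10 smooth muscle markers, at 9.24, 8.96 and 9.02 in mutants and 9.19, 9.61 and 9.09 in controls. The part of either in the enzyme values was not tested.

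**Figure D3:**
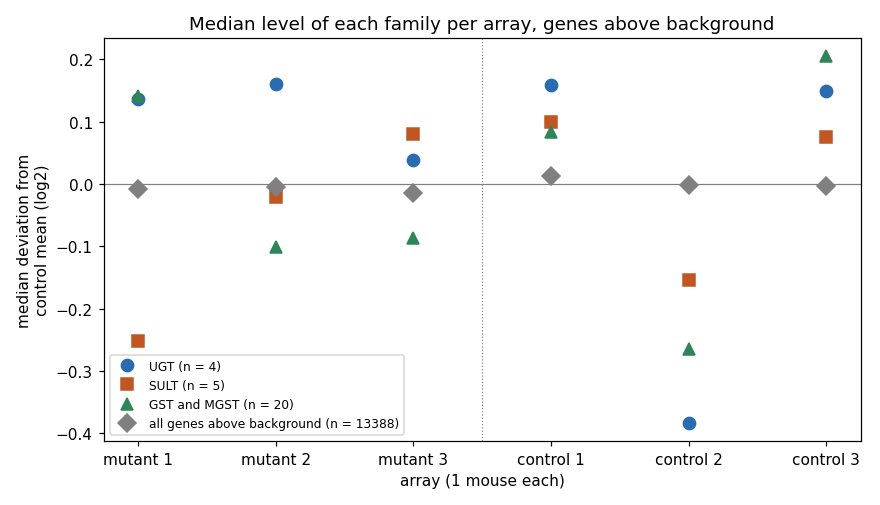
Median deviation from the control mean (log2) in each array over the members above background, for UGT (4 genes), SULT (5), GST with MGST (20) and all 13388 genes above background. Control 2 is low for UGT (-0.38) and for GST with MGST (-0.26), whereas all genes stay near 0 in every array.

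Each enzyme family needs a donor, and genes that make or move it were examined next. For sulfation, the apical sodium-sulfate cotransporter gene Slc13a1 was at 8.24, 8.03 and 8.76 in the mutants, against 9.34, 9.54 and 9.49 in the controls. All mutants were well below all controls, and the difference of -1.12 (SE 0.19, a 2.17-fold lower signal) was called over the clusters with 1 symbol (limma adjusted p 0.0591) but not over all clusters (0.311). The call was kept only without mutant 3 (adjusted p 0.0143) and was lost without each of the other 5 arrays (up to 0.209). Papss1, which encodes a synthase of PAPS, lay the other way at 8.99, 9.18 and 9.22 in mutants and 8.56, 8.80 and 8.66 in controls, a difference of 0.46 (SE 0.11, limma adjusted p 0.502 and 0.202). Slc35b2, whose product moves PAPS from the cytosol into the Golgi and so away from the SULT enzymes, differed by -0.28. Of the 11 measured genes of PAPS and sulfate supply, 1 was called over the clusters with 1 symbol and none over all clusters. In this list 6 were above 0 and 5 below, with a median of 0.01. The groups were apart for 3 with mutants higher and 3 with mutants lower, beside 7.5% and 6.82% of all genes.

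**Figure D4:**
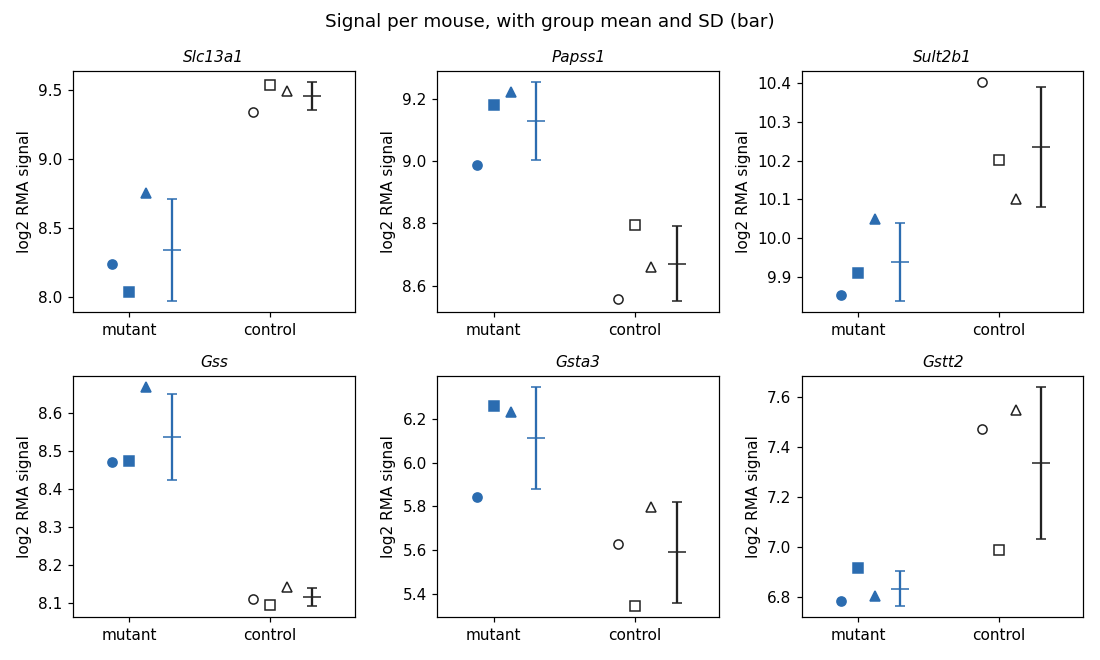
Log2 RMA signal per mouse (circle, square and triangle for mice 1, 2 and 3) for Slc13a1, Papss1, Sult2b1, Gss, Gsta3 and Gstt2, mutants left and controls right, with the group mean and SD as a bar and each axis cut to the range of its gene. The groups do not overlap in any panel of these picked genes, whereas they were apart for 7 of the 52 members and 14.3% of all genes. Slc13a1 has the widest separation (-1.12).

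For glucuronidation, 6 of 7 genes of UDP-glucuronate supply were above 0 (median 0.12), 4 of them with all mutants above all controls, beside 7.5% of all genes, and none was called. Slc35d1, which encodes a transporter of UDP-glucuronate into the endoplasmic reticulum, was at 8.29, 8.29 and 8.36 in mutants against 8.21, 7.96 and 8.05 in controls (0.24, SE 0.10, limma adjusted p 0.711 over all clusters). Ugp2, the gene of UDP-glucose pyrophosphorylase, differed by 0.18 and Hk1, a hexokinase gene, by 0.27. Ugdh, which makes UDP-glucuronate itself, overlapped at 10.64, 10.88 and 10.94 in mutants and 10.88, 10.64 and 10.83 in controls.

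For glutathione conjugation, none of 21 genes of glutathione synthesis and breakdown was called (9 above 0, 12 below, median -0.04). Gss, the glutathione synthetase gene, was at 8.47, 8.47 and 8.67 in mutants against 8.11, 8.09 and 8.14 in controls (0.42, SE 0.10, limma adjusted p 0.467 and 0.185). Acy3, whose product acts on the mercapturates formed from glutathione conjugates, was at 9.64, 9.28 and 9.40 in mutants against 10.17, 9.82 and 10.14 in controls (-0.60, SE 0.15, limma adjusted p 0.487 and 0.172). Chac2, which encodes a glutathione-degrading enzyme, differed by -0.38. All 3 were apart between groups without passing the test, but they were named for having the smallest p of the list. Of the 21 genes, 5 were apart with mutants higher and 5 with mutants lower, beside 7.5% and 6.82% of all genes. None of 19 glutathione peroxidases and redox partners was called (median 0.03), and Hpgds and Ltc4s in that list are also tuft cell markers, a list of which 14 of 15 genes were above 0.

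Among other conjugation enzymes (amino acid conjugation, acetylation and methylation), 11 of 14 genes were below 0 (median -0.09). Acsm5, an acyl-CoA synthetase gene of the family that activates acids for glycine conjugation, was at 6.20, 6.16 and 6.13 in mutants against 7.50, 6.78 and 7.21 in controls. Its difference of -1.003 (SE 0.18) was called over the clusters with 1 symbol (limma adjusted p 0.0719, and 0.329 over all clusters), but among the fits that left out 1 array it was called only without control 2 (0.0127, with up to 0.288 in the others). Of 13 genes that release conjugates or hydrolyse esters and epoxides, 8 were above 0 and 6 were apart between groups, all higher in mutants (beside 7.5% of all genes), but none was called. These included Ces2a, an intestinal carboxylesterase gene (11.08 ± 0.31 in mutants and 10.55 ± 0.16 in controls, SD, n = 3 each), Ephx1, the microsomal epoxide hydrolase gene (7.72 ± 0.24 in mutants and 7.21 ± 0.24 in controls), and Gusb, the lysosomal glucuronidase gene (7.73 ± 0.01 in mutants and 7.47 ± 0.05 in controls).

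Of 15 efflux and uptake carriers, 10 were above 0 (median 0.09) and none was called. Abcc3, which exports glucuronides across the basolateral membrane, was at 8.42, 8.58 and 8.45 in mutants against 8.19, 8.25 and 8.15 in controls (0.28, SE 0.10). NRF2 is the factor that induces many GST genes under oxidative stress. Of 18 of its targets outside the families, 14 were above 0 (median 0.06), beside 52.7% of all genes, and none was called. This list shares genes with those above, such as Gclc and Abcc1. Its median deviation from the control mean was -0.06, 0.04 and 0.10 in the mutants and -0.05, 0.08 and -0.03 in the controls. The groups were apart for 1 gene, lower in mutants, beside 6.82% of all genes. Among 23 regulators of conjugation genes, 16 were below 0 (median -0.07) and Hnf4a alone was called over the clusters with 1 symbol, with none called over all clusters. Nr1i3, the xenobiotic receptor CAR, was at 8.51, 8.37 and 8.18 in mutants against 9.23, 8.59 and 9.18 in controls (-0.65, SE 0.19, limma adjusted p 0.593 and 0.280), with control 2 again the lowest control. Over the clusters with 1 symbol it was called in 1 of the 6 fits that left out an array (without control 2), and over all clusters in none. Rxra, the partner receptor of CAR, differed by -0.33.

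Promoter sequence was compared with all promoters in the RefSeq table (GRCm38.p6, 250 bases before to 50 after each start, 32851 windows, both strands). It held 56 windows for 45 of the 52 members, with no window for Gstt2, which was therefore not searched. The HNF4 core CAAAGT was found in 21.4% of the member windows and 14.4% of all, and the HNF1 motif GTTAAT in 17.9% and 7.10%. The antioxidant response element TGACNNNGC was found in 5.36% and 12.4%, and the Ah receptor element GCGTG in 16.1% and 32.4%. Neighbouring members are copies of each other, so their windows are not independent, and no test was made. The HNF1 motif was found upstream of Gsta3, Ugt2a3, Sult1d1, Sult1a1 and several Sult2a genes, and the HNF4 core in windows of Gstm1, Gstm3, Gstk1, Gstp1, Gstp2, Mgst1, Mgst3, Sult1b1 and Sult2b1 among the members above background.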

How the data were processed

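Per the labels, the authors obtained the deposited log2 values by RMA (Transcriptome Analysis Console), which equalises the arrays and compresses weak signals. Cluster identifiers match the Mouse Gene 2.0 ST design, although the methods name another array. Groups came from titles. limma 3.58.1 in R 4.3.3 was fitted over all 41345 clusters (called at a Benjamini-Hochberg adjusted p under 0.10, two-sided). It was fitted again over the 23521 with 1 symbol, which also changes the p-values before adjustment. SEs and intervals are those of the fit over all clusters. Both fits were tested on simulated data. The brightest cluster stood for a gene. Named were Hnf4a, Hnf4g, the 6 members with the smallest p and the 4 brightest per family, and up to 3 genes per list. Values of further members were added after seeing them. Members and lists were chosen with earlier results of these data known. Replicates are separate mice, and 3 arrays per group limit the precision. The marker lists gave these median differences and, over clusters with 1 symbol, called genes: goblet 0.33 (1 of 12, Bcas1), tuft 0.28 (1 of 15, Avil), Paneth 0.14 (0 of 9), smooth muscle -0.27 (0 of 10), leukocyte -0.09 (0 of 11), fibroblast and adipocyte 0.18 (0 of 10), pancreatic acinar -0.05 (0 of 10), enterocyte -0.02 (0 of 19) and hepatocyte -0.97 (8 of 28).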

Additional observations from a re-analysis of the deposited data

How the results depend on the processing

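The number of members called over all clusters was 0 under every alternative tried. These were a refit over clusters with 1 symbol, a filter on dim clusters, repeated quantile normalization, centring and array weights. The others were a robust prior with an intensity trend, statistics without moderation and each array left out. A threshold of 0.05 and a 1.5-fold minimum could not raise this number, and averaging clusters changed no member, since each had 1. The replicate number as a block also gave 0 called members. For mice of the same number, deviations from the group mean correlated at -0.11, -0.0065 and -0.05, and for other pairs at up to 0.11 (mutant 1 with control 3). The deviations of the 3 arrays of a group sum to 0, so these values cannot decide whether the mice were paired. Over clusters with 1 symbol, leaving out each array gave 0 to 1 (Gstt2, without control 2), and the other settings 0. Members apart between groups numbered 9 to 17 when each array was left out (17 without control 2, 13 without control 3, 11 without mutant 3), but such fits separate more genes at large too: 26.4%, 27.2% and 24.6% of all genes, against 14.3% with all arrays. Leaving out arrays gave family medians of -0.12 to 0.13 for UGT, 0.0289 to 0.0739 for SULT and -0.05 to 0.08 for GST with MGST. The filter on dim clusters gave -0.10 for SULT. No named gene changed sign outside the fits that left out an array, where the ranges crossed 0 for Ugt3a2 (-0.40 to 0.0575), Ugt2b38 (-0.0108 to 0.23), Ugt2b36 (-0.30 to 0.0528), Ugt2a3 (-0.26 to 0.28), Ugt2b5 (-0.27 to 0.45), Sult1b1 (-0.0460 to 0.10), Gstp2 (-0.11 to 0.0104) and Hnf4g (-0.0195 to 0.10). Single values in these ranges were 0.0064 for Ugt2b36 and -0.0078 for Ugt2a3 without mutant 2, -0.0082 for Sult1b1 without mutant 3 and -0.0118 for Hnf4g without control 2. The cause was not tested. Signals near background limit most SULT genes and Gsta3.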
